A study of Mus musculus with 12 samples.

Results

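The genes described here are 49 WNT ligands, receptors and secreted antagonists of the mouse, chosen by gene name from the 56350 genes of a count table of MPC2 cells. They comprise 11 ligands, 9 frizzled receptors, 6 co-receptors and alternative receptors, 12 antagonists, 8 genes of the R-spondin arm and 3 feedback targets of the pathway. All 49 genes were in the table, and 37 of them had more than 10 counts in at least 3 libraries and were tested.

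WNT proteins are secreted, lipid-modified ligands that bind frizzled receptors on the cell surface together with the co-receptor LRP5 or LRP6, which stabilises beta-catenin and switches on target genes through TCF and LEF factors, or bind ROR and RYK receptors to act without beta-catenin. Secreted frizzled-related proteins, Dickkopf proteins, WIF1, sclerostin and the deacylase NOTUM restrain the ligands or the co-receptors, while R-spondins acting through LGR receptors keep the ubiquitin ligases ZNRF3 and RNF43 from removing frizzleds. In bone, WNT signalling drives osteoblast formation and bone gain, loss of LRP5 lowers bone mass, and the osteocyte product sclerostin is its best known brake.

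RNAseq was done on MPC2 cells, a conditionally immortalized mouse mesenchymal line that is 1 clone. Undifferentiated MSCs were grown at 33 °C, and osteocytes were obtained by culture for 3 weeks at 37 °C in medium with beta-glycerophosphate and ascorbic acid. Each cell type received vehicle (DMSO) or 50 µmol/L FG-4592 for 48 hours, with 3 libraries for each of the 4 conditions. FG-4592 (Roxadustat) inhibits the prolyl hydroxylases that mark HIF for breakdown and so mimics hypoxia. The comparisons asked how mimicked hypoxia changes expression in each cell type and what differentiation changes. Because temperature, medium and culture time changed along with differentiation, these cannot be told apart in any comparison of osteocytes with MSCs. The labels do not say that the 3 libraries of a condition came from separate cultures, so p-values measure the spread between these libraries, which may be technical.

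Library totals ranged from 52829185 to 68108470 counts. Where a gene had no read, its level could still have been up to 3 counts, or 0.0447 to 0.0545 CPM (counts scaled to the normalized library size). Each of the 12 libraries lay nearest to a library of its own condition. Of 8 HIF response genes, FG-4592 raised 6 in MSCs and 8 in osteocytes, at an FDR under 0.05 and by more than 1 on the log2 scale, while in MSCs Egln3 (0 and 0.0052 CPM on average, FDR 0.661) and Car9 (0.0334 and 0.0515 CPM, FDR 0.746) did not pass the test. Ldha, one of these genes, averaged 318 and 3150 CPM in vehicle and treated MSCs and 341 and 2290 CPM in osteocytes. Of 12 osteocyte and osteoblast markers 9 were tested, and in vehicle osteocytes against vehicle MSCs Phex (0.977 and 57.6 CPM on average), Dmp1 (1.19 and 11.2 CPM), Bglap and Bglap2 were called up and Sp7 was higher, Ibsp (59.6 and 35.6 CPM) and Alpl (76.6 and 61 CPM) were lower, and Fgf23 and Col1a1 did not pass the test. With FG-4592, Phex (2.83 CPM on average), Dmp1 (2.06 CPM), Bglap, Bglap2 and Ibsp were called down in osteocytes, Sp7 and Alpl were lower (log2 -0.72 and -0.83) and Fgf23 was called up. In MSCs with FG-4592, Ibsp (log2 -4.12), Dmp1 (-2.44), Alpl (-1.99) and Phex (-1.53) were called down and Sp7 was lower. Sost and Mepe, which mark mature osteocytes, had at most 2 counts in any library, and the sum over the 12 markers, to which Col1a1 gave most of the counts, was 2880 to 3230 CPM in vehicle MSCs, 2630 to 2850 in treated MSCs, 2730 to 3200 in vehicle osteocytes and 2760 to 3670 in treated osteocytes. The 6 adipocyte markers summed to 899 to 916 CPM in vehicle MSCs and 3730 to 4540 CPM in vehicle osteocytes, with Adipoq, an adipocyte hormone, at 7.77 and 1470 CPM on average. With FG-4592, Adipoq was called down in MSCs (2.86 CPM, log2 -1.44, FDR 2.5e-07) and Fabp4 was called up in osteocytes (104 to 238 CPM, log2 1.19, FDR 6.83e-07). No other marker of this list was called with FG-4592. Of other lists, the 4 chondrocyte markers summed to 82.8 to 92.2 CPM in vehicle MSCs, 148 to 164 in treated MSCs, 108 to 128 in vehicle osteocytes and 367 to 445 in treated osteocytes, and the 5 haematopoietic and vessel markers never exceeded 2.1 CPM in sum. From vehicle MSCs to vehicle osteocytes, Col2a1 was called up (0.771 and 62.7 CPM on average, log2 6.32). Sox9 was lower (84.2 and 51.7 CPM), Col10a1 was called down (log2 -1.54) and Acan was not tested. In osteocytes FG-4592 raised Col2a1 to 294 CPM (log2 2.23) and Sox9 to 119 CPM (log2 1.21). The 2 smooth muscle markers summed to 1.14 to 1.36 CPM in vehicle MSCs, 0.0745 to 0.312 in treated MSCs, 0.618 to 1.01 in vehicle osteocytes and 0.2 to 0.413 in treated osteocytes, with Cnn1 called down with FG-4592 in both cell types (log2 -2.64, FDR 0.00304 and -2.36, FDR 0.0108) and Myh11 in MSCs (log2 -2.82, FDR 0.0187). The part of these markers in the differences was not tested. In these bulk libraries, fewer cells of a type and less RNA per cell cannot be told apart.

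The 12 members that were not tested had few or no reads. The highest count in any library was 23 for Wnt2, 12 for Wnt11, 11 for Wnt10a, 9 for Wnt6, 8 for Sfrp2, 7 for Rnf43, 2 for Wnt16 and 1 for both Dkk1 and Sfrp5. Dkk2 and Sost had no count in any library. Sost encodes sclerostin, and Dkk1 and Dkk2 encode Dickkopf inhibitors of LRP5 and LRP6, so of the classical co-receptor inhibitors none passed the filter. Wnt10a had 7, 8 and 11 counts in the 3 vehicle osteocyte libraries and 0 in the 3 treated ones, which is under the filter used.

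Fzd6 was also listed at 0 in every library, but its 0 cannot be read as silence. The table held Fzd6 in 2 rows of equal exonic length, 1 on chromosome 15 and 1 on a patch scaffold, and only uniquely mapped reads were counted. Of the 224 protein-coding genes listed in this way, 81 (36.2%) had 0 counts in all 12 libraries in both rows and 184 had at most 10 counts in every library, whereas 17.5% of the 21572 protein-coding genes listed on chromosomes only were at 0 throughout.

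Levels of different WNT genes are compared as CPM per kilobase of exonic length. This length covers all annotated exons of a gene, so it may differ from that of the transcripts expressed. Fzd6 was entered at 0 in these levels, sums and shares, although its 0 cannot be read as silence. Sfrp1, which encodes a secreted decoy for WNT ligands, had the highest level of all members in every condition, with means of 385, 307, 212 and 142 CPM per kilobase in vehicle MSCs, treated MSCs, vehicle osteocytes and treated osteocytes. Rspo2, an R-spondin that amplifies WNT signalling, came next in MSCs with 131 and 111 CPM per kilobase. Among frizzleds other than Fzd6, Fzd1 led in all 4 conditions, with 49.1, 41.0, 67.1 and 47.8 CPM per kilobase. Wnt4 had the highest ligand level (17.4, 18.1, 12.5 and 22.5 CPM per kilobase), next to Wnt10b in treated MSCs, which was at 17.2. The feedback targets were low, summing to 2.22 CPM per kilobase in vehicle MSCs and 0.686 in treated osteocytes.

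**Figure D1:**
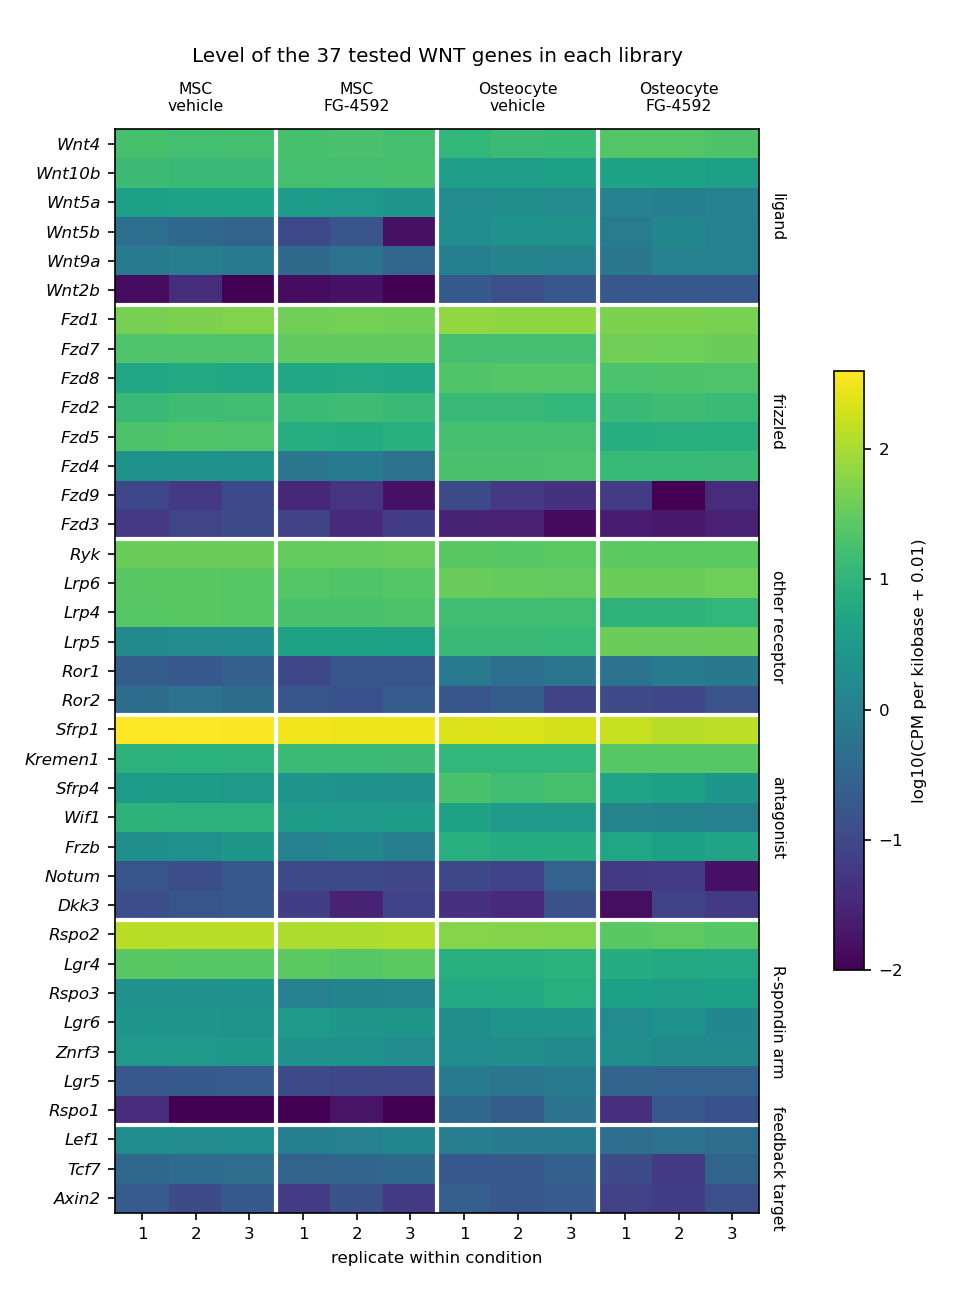
Level of the 37 tested WNT genes (rows, grouped by role and ordered by mean level) in each of the 12 libraries (columns), as log10(CPM per kilobase + 0.01) on the colour scale. Sfrp1 is brightest in every library, with condition means from 142 to 385 CPM per kilobase, and Rspo1 and Wnt2b are at or near the bottom of the scale in MSC libraries.

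FG-4592 moved more of the tested members down than up in both cell types. To be called, a gene had to pass an FDR of 0.05 (edgeR, quasi-likelihood test, adjusted over all 16484 genes tested) and a log2 fold change of 1 in size. In MSCs, 1 of the 37 tested members was called up, where 4.12% of all genes tested were, and 6 were called down, where 5.17% of all genes were. In osteocytes, 3 members were called up against 6.25% of all genes, and 8 were called down against 4.26% of all genes. At an FDR under 0.05 with any fold, 4 members were higher and 19 lower in treated MSCs (17.6% and 20.4% of all genes), and 6 were higher and 19 lower in treated osteocytes (21.9% and 22% of all genes). The median log2 fold change of the 37 members was -0.53 in MSCs and -0.49 in osteocytes, beside -0.05 and 0 for all genes tested. These counts and medians run over the members that passed the filter on counts and describe this list only. Fzd9 passed the filter only through vehicle libraries, with at most 6 counts in treated MSCs and 8 in treated osteocytes. Its log2 fold changes in the medians (-1.74 and -1.11) are thus partly set by the filter.

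**Figure D2:**
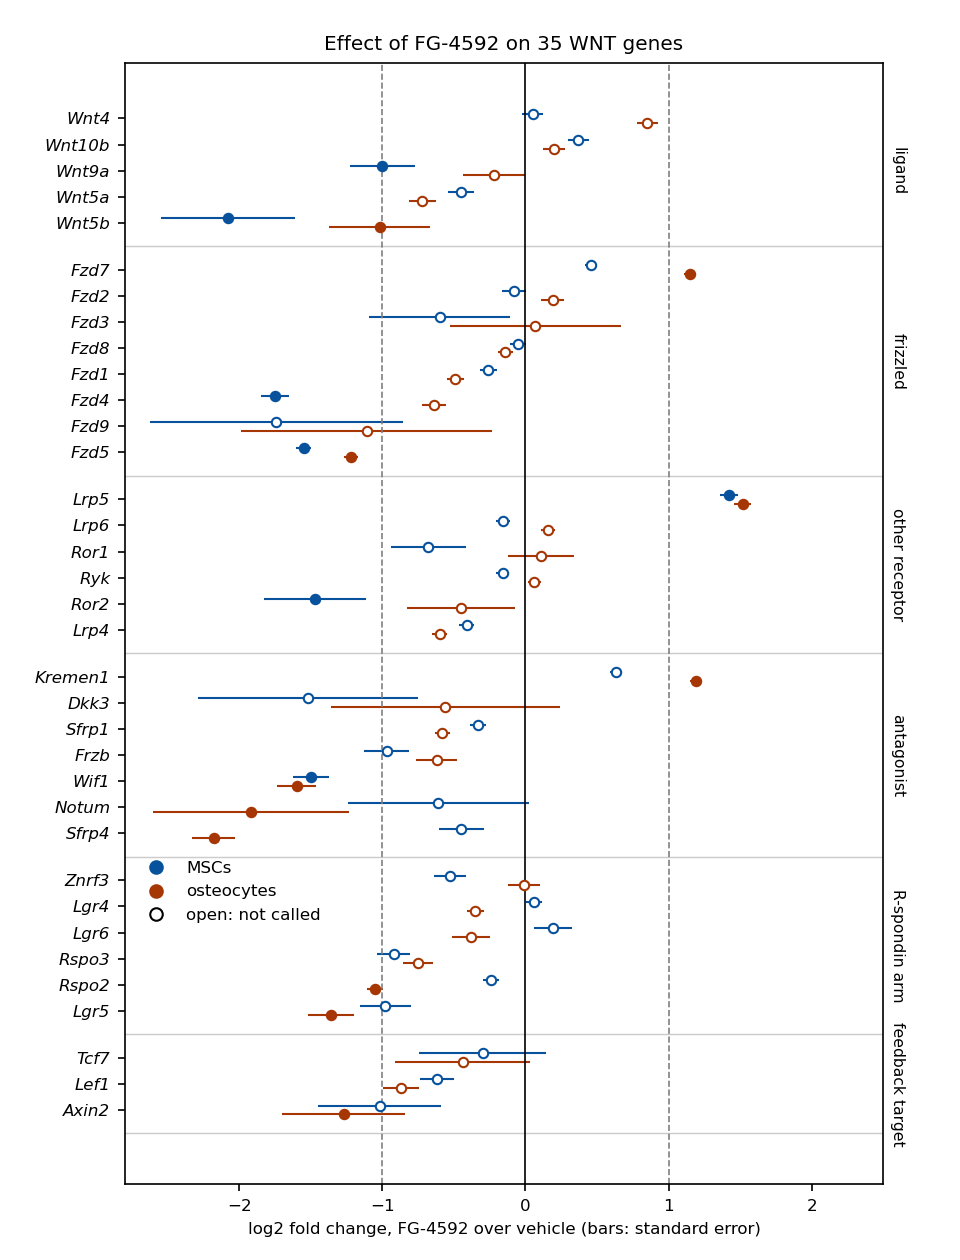
Log2 fold change of FG-4592 over vehicle (horizontal axis, with bars of 1 standard error) for 35 WNT genes in MSCs (blue) and osteocytes (brown), grouped by role. Filled points were called, dashed lines mark log2 fold changes of -1 and 1, and Wnt2b and Rspo1 are left out because their MSC counts were 7 or fewer. Lrp5 lies right of the upper line in both cell types, and Fzd5, Wif1 and Wnt5b lie left of the lower line in both.

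Among the ligands, FG-4592 lowered Wnt5b in both cell types and raised Wnt4 in osteocytes. WNT4 is a ligand with roles in bone and kidney formation, and WNT5A and WNT5B mostly act without beta-catenin. Wnt4 (gene span chr4:137277489-137299726 on mm10, the build of all gene spans given here) was at 75.2, 70.9 and 72.9 CPM in vehicle MSCs, 74.6, 79.4 and 73.3 in treated MSCs, 46.0, 56.8 and 54.1 in vehicle osteocytes, and 98.3, 98.8 and 86.1 in treated osteocytes. The treated osteocytes were above all other libraries, and the MSC groups overlapped. In osteocytes Wnt4 rose 1.81-fold (log2 0.85 ± 0.0736 SE, n = 3, FDR 9.72e-08 in edgeR), short of the fold threshold, and in MSCs its log2 fold change was 0.05 ± 0.073 (FDR 0.607).

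Wnt5b (chr6:119432531-119544347) gave 1.16, 0.935 and 0.785 CPM in vehicle MSCs and 0.252, 0.402 and 0.0156 in treated MSCs. In osteocytes it gave 4.5, 6.13 and 6.16 CPM with vehicle and 2.26, 3.32 and 2.69 with FG-4592. Groups did not overlap in either cell type, but 1 treated MSC library held a single Wnt5b read. The fall was 4.24-fold in MSCs (log2 -2.08 ± 0.468, FDR 0.00206) and 2.03-fold in osteocytes (log2 -1.02 ± 0.35, FDR 0.0263), where it lay at the fold threshold and the call was lost with DESeq2 (FDR 0.0972) and when vehicle replicate 2 or 3 or treated replicate 1 or 3 was left out. The MSC log2 fold change was -1.53 without treated replicate 3, the lowest library, and -2.86 without treated replicate 2, the highest.

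Wnt9a was at 2.67, 2.99 and 2.62 CPM in vehicle MSCs and 1.24, 1.80 and 1.08 in treated MSCs, and at 3.16, 3.79 and 3.53 CPM in vehicle osteocytes and 2.19, 3.55 and 3.27 in treated ones. The MSC groups did not overlap and the osteocyte groups did. Wnt9a fell in MSCs with a log2 fold change of -1 ± 0.228 (FDR 0.00221), which lay at the fold threshold and was not called in 11 of 21 other settings, and in osteocytes the log2 fold change was -0.22 (FDR 0.453). WNT9A acts in joint and limb development.

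Smaller changes were seen in Wnt10b, a beta-catenin ligand that favours bone over fat formation, and in Wnt5a. Wnt10b rose in MSCs from 42.9 to 47.7 CPM with vehicle to 56.8 to 61.3 CPM with FG-4592 (log2 0.37, FDR 0.00056) and in osteocytes with overlapping ranges of 12.4 to 14.1 and 13.7 to 15.6 CPM (log2 0.20, FDR 0.0415). Wnt5a fell in both cell types, from 30.4, 32.6 and 33.0 to 25.6, 24.3 and 20.5 CPM in MSCs (log2 -0.45, FDR 0.000858) and from 12.8, 14.3 and 12.9 to 8.43, 7.39 and 8.45 CPM in osteocytes (log2 -0.72, FDR 1.19e-05). Wnt2b passed the filter only through its osteocyte libraries, with 54, 28 and 43 counts with vehicle and 48, 47 and 44 with FG-4592, while no MSC library held more than 7.

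The frizzleds, the receptors that bind WNT ligands at the cell surface, moved in opposite directions. Fzd7 (ENSMUSG00000041075.8, chr1:59482424-59486955, plus strand) gave 97.1, 97.5 and 98.3 CPM in vehicle MSCs, 136, 134 and 133 in treated MSCs, 80.02, 76.4 and 75.6 in vehicle osteocytes, and 176, 172 and 169 in treated osteocytes. Treated libraries were above vehicle libraries in both cell types without overlap, and the treated osteocytes were the highest of all. Fzd7 rose 2.23-fold in osteocytes (log2 1.15 ± 0.0428, n = 3, FDR 2.63e-12) and 1.37-fold in MSCs (log2 0.46 ± 0.0423, FDR 2.75e-07), the latter short of the fold threshold.

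Fzd5 (ENSMUSG00000045005.9, chr1:64730558-64737751, minus strand) lies on the same chromosome and went the other way. It gave 143, 152 and 146 CPM in vehicle MSCs against 49.6, 47.7 and 53.2 in treated MSCs, and 122, 121 and 120.5 in vehicle osteocytes against 50.1, 51.5 and 54.7 in treated osteocytes. All 6 treated libraries were below all 6 vehicle libraries. The fall was 2.93-fold in MSCs (log2 -1.55 ± 0.0519, FDR 9.52e-13) and 2.32-fold in osteocytes (log2 -1.22 ± 0.0516, FDR 1.45e-11). Fzd5 shares 1233 exonic bases with the antisense gene Gm38058, and reads were counted without strand, but Gm38058 had at most 46 counts in any library.

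Fzd4, the receptor for norrin as well as for WNT ligands (chr7:89404355-89413134), gave 14.5, 15.1 and 13.4 CPM in vehicle MSCs against 4.35, 4.99 and 3.39 in treated MSCs, and 129, 127 and 133 in vehicle osteocytes against 80.6, 81.1 and 88.2 in treated osteocytes. Each group stood apart from the others. Fzd4 fell 3.37-fold in MSCs (log2 -1.75 ± 0.10, FDR 8.11e-10) and 1.55-fold in osteocytes (log2 -0.64 ± 0.0814, FDR 8.15e-06).

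Of the remaining frizzleds, Fzd1 fell slightly in both cell types (log2 -0.26, FDR 0.00251 in MSCs and -0.49, FDR 5.63e-06 in osteocytes), and Fzd8 fell in osteocytes by 0.14 on the log2 scale (FDR 0.0411), from 130.1 to 141 CPM to 118 to 129 CPM. Fzd2, Fzd3 and Fzd9 did not pass the test in either cell type. The ratio of Fzd7 to Fzd5, taken per kilobase, was 1.01 ± 0.0289 (SD, n = 3) in vehicle MSCs and 0.973 ± 0.0233 in vehicle osteocytes, and 4.09 ± 0.244 and 5.05 ± 0.337 with FG-4592. No treated library had a ratio under 3.81. No test was made on this ratio. With Fzd6 entered at 0, the summed level of the frizzled genes was 114 ± 6.25 CPM per kilobase in vehicle MSCs, 97.7 ± 2.53 in treated MSCs, 156 ± 2.69 in vehicle osteocytes and 140 ± 0.803 in treated osteocytes.

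The sequences before the starts of 4 of these genes are given because Fzd5, Wif1 and Wnt5b fell with FG-4592 in both cell types while Fzd7 rose. Each line holds the 250 bases upstream of a RefSeq start on GRCm38.p6, read 5′ to 3′ on the strand of the gene: Fzd7 at chr1:59481897-59482146 (plus), Fzd5 at chr1:64737751-64738000 (minus), Wif1 at chr10:121033754-121034003 (plus) and Wnt5b, at the most upstream of its 3 listed starts, at chr6:119544348-119544597 (minus). Capitals mark ACGTG and GCGTG, the core of the site that HIF binds, on either strand, where CACGTG counts on both strands.
Fzd7: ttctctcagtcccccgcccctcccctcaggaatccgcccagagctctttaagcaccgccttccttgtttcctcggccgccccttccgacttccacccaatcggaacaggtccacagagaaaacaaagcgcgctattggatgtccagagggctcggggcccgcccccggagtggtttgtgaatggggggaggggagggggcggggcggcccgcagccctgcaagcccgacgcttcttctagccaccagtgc
Fzd5: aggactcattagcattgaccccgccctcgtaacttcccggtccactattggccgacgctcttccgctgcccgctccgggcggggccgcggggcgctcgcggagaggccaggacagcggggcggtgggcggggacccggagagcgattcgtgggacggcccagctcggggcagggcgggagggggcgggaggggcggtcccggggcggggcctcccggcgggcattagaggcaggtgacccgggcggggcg
Wif1: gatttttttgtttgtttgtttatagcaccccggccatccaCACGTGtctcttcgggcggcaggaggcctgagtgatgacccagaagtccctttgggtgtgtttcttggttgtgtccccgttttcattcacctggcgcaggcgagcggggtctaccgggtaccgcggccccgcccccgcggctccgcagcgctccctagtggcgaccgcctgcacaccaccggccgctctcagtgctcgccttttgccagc
Wnt5b: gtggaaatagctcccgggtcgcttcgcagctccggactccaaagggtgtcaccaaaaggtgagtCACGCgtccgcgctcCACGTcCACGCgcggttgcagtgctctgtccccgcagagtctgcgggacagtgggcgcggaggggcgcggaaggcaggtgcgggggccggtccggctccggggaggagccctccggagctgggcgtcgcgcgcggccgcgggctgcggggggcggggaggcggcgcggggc
The Fzd7 and Fzd5 stretches, with 65.2% and 76.4% G and C, held none of these letters, the Wif1 stretch held CACGTG once, and the Wnt5b stretch held 3 matches, while the other 2 listed Wnt5b starts had 1 and 0. Over all RefSeq promoters of this length, 12679 of 32851 (38.6%) held at least 1 match. Of the 49 WNT genes, 31 had a promoter in the table (39 starts), and 20 of these starts (51.3%) held a match. A match was found in 4 of the 7 matched genes that were called down with FG-4592 in either cell type and in 9 of the 13 matched genes that were tested and called in neither. CTTTGAA or CTTTGAT, a core of TCF and LEF sites, was present in 3 of the 39 starts (7.69%) and in 7.48% of all promoters. No promoter in the table was found for Lrp5, Kremen1, Sfrp4, Rspo2, Lgr5 and Notum.

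**Figure D3:**
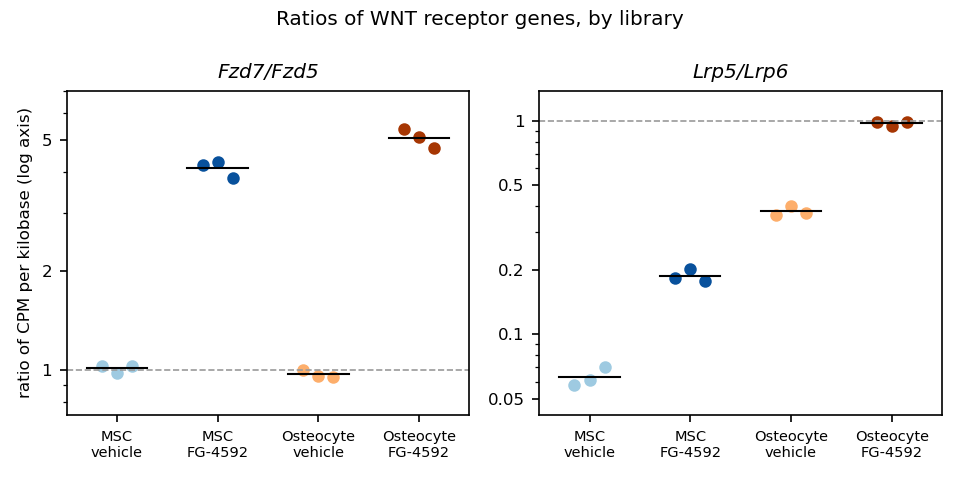
Ratio of Fzd7 to Fzd5 and of Lrp5 to Lrp6, from CPM per kilobase, in each of the 12 libraries (points, log axis), by condition. Fzd7 to Fzd5 lies near 1 in every vehicle library and between 3.81 and 5.37 in treated libraries, and Lrp5 to Lrp6 climbs from a mean of 0.0632 in vehicle MSCs to 0.973 in treated osteocytes.

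Lrp5 was the one member called up in both cell types. It encodes a co-receptor that, with LRP6, passes the WNT signal to beta-catenin and sets bone mass. Lrp5 (ENSMUSG00000024913.16, chr19:3584828-3686564, minus strand) gave 14.7, 15.9 and 17.3 CPM in vehicle MSCs, 42.3, 44.3 and 41.5 in treated MSCs, 125, 127 and 114 in vehicle osteocytes, and 354, 339 and 359 in treated osteocytes. The 4 conditions formed 4 separate levels in that order. The rise with FG-4592 was 2.67-fold in MSCs (log2 1.42 ± 0.0632, n = 3, FDR 3.72e-11) and 2.87-fold in osteocytes (log2 1.52 ± 0.0593, FDR 4.96e-12).

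Its paralogue Lrp6 was at a higher level per kilobase in vehicle MSCs (26 against 1.64 CPM per kilobase) and moved little, with 357, 364 and 347 CPM in vehicle MSCs, 324, 306 and 327 in treated MSCs, 484, 448 and 430.3 in vehicle osteocytes and 504, 505 and 509 in treated osteocytes. Lrp6 was lower with FG-4592 in MSCs (log2 -0.16, FDR 0.0174) and higher in osteocytes (log2 0.16, FDR 0.016). Per kilobase, the ratio of Lrp5 to Lrp6 was 0.0632 ± 0.00641 (SD, n = 3) in vehicle MSCs, 0.188 ± 0.0132 in treated MSCs, 0.377 ± 0.0186 in vehicle osteocytes and 0.973 ± 0.0257 in treated osteocytes. Lrp5 thus came near the per-kilobase level of Lrp6 in treated osteocytes, where the 2 genes averaged 351 and 506 CPM. Lrp5 and Lrp6 shared no stretch of at least 100 bases at 95% identity or more, and neither did any other pair of the 49 genes.

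Among receptors that act apart from LRP5 and LRP6, Ror2, a receptor tyrosine kinase for WNT5A, gave 1.78, 2.34 and 1.74 CPM in vehicle MSCs and 0.671, 0.566 and 0.874 in treated MSCs. The groups did not overlap, and Ror2 fell 2.77-fold (log2 -1.47 ± 0.357, FDR 0.00363). In osteocytes it gave 0.678, 0.934 and 0.325 CPM with vehicle and 0.446, 0.376 and 0.594 with FG-4592, with overlap and no call (log2 -0.45, FDR 0.375). Lrp4, a sclerostin-binding relative of LRP5, fell in both cell types by less than the fold threshold (log2 -0.41, FDR 1.09e-05 in MSCs and -0.60, FDR 1.29e-07 in osteocytes). Ryk fell by 0.16 on the log2 scale in MSCs (FDR 0.00916), and Ror1 did not pass the test in either cell type.

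Of the 37 tested members, the largest fall in osteocytes was that of the antagonist Sfrp4, a secreted frizzled-related protein whose loss in humans causes a bone disorder with thin cortices. Sfrp4 (ENSMUSG00000021319.7, chr13:19623104-19632994) gave 13.4, 13.6 and 12.4 CPM in vehicle MSCs, 9.90, 9.67 and 9.23 in treated MSCs, 78.5, 64.5 and 74.9 in vehicle osteocytes, and 19.98, 17.2 and 10.8 in treated osteocytes. Within each cell type the treated libraries were below the vehicle libraries. Sfrp4 fell 4.53-fold in osteocytes (log2 -2.18 ± 0.152, n = 3, FDR 7.39e-09) and by 0.45 on the log2 scale in MSCs (FDR 0.0317).

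Wif1, which encodes a secreted protein that binds WNT ligands directly (chr10:121033960-121100650), gave 22.4, 21.6 and 21.6 CPM in vehicle MSCs and 7.84, 7.37 and 7.95 in treated MSCs, and 10.6, 7.49 and 7.04 CPM in vehicle osteocytes and 2.97, 2.81 and 2.53 in treated ones. Treated and vehicle libraries did not overlap within either cell type. Wif1 fell 2.83-fold in MSCs (log2 -1.50 ± 0.128, FDR 1.12e-07) and 3.02-fold in osteocytes (log2 -1.6 ± 0.139, FDR 1.09e-07), and the difference between the responses was -0.09 (FDR 0.769).

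Kremen1, a transmembrane receptor through which Dickkopf proteins remove LRP6 from the cell surface (chr11:5191552-5261558), was the antagonist that rose. It gave 68.5, 67.1 and 69.0 CPM in vehicle MSCs, 104, 105 and 108 in treated MSCs, 86.0, 86.4 and 85.1 in vehicle osteocytes, and 195, 196 and 197 in treated osteocytes. No condition overlapped another. The rise was 2.28-fold in osteocytes (log2 1.19 ± 0.0406, FDR 8.96e-13) and 1.55-fold in MSCs (log2 0.63 ± 0.0406, FDR 3.36e-09).

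Sfrp1, the most abundant member, fell by less than the fold threshold in both cell types. Its libraries gave 1717, 1711 and 1624 CPM in vehicle MSCs against 1390, 1311 and 1321 in treated MSCs, and 967, 932 and 885 in vehicle osteocytes against 675, 582 and 606 in treated osteocytes (log2 -0.33, FDR 0.000156 and -0.58, FDR 2.81e-07). Sfrp1 made up 94.2% of the summed antagonist level in vehicle MSCs and 80.2% in treated osteocytes, and the sum went from 409 ± 11.6 to 327 ± 9.79 CPM per kilobase in MSCs and from 252 ± 10.9 to 177 ± 12.1 in osteocytes. Frzb, a further secreted decoy, fell by 0.97 on the log2 scale in MSCs (FDR 0.000122), beyond the threshold without vehicle replicate 1 or 2 or treated replicate 2 (-1.01 to -1.13), and by 0.62 in osteocytes (FDR 0.0021).

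Notum, which encodes an enzyme that removes the lipid from WNT ligands, was near the floor, with 14, 10 and 40 counts (0.211, 0.180 and 0.650 CPM) in vehicle osteocytes and 8, 8 and 1 counts (0.123, 0.131 and 0.0165 CPM) in treated osteocytes. In MSCs it gave 0.345, 0.284 and 0.408 CPM with vehicle and 0.235, 0.238 and 0.203 with FG-4592. The groups did not overlap, and in osteocytes 1 vehicle library was far above and 1 treated library far below the others. Its call there (log2 -1.92 ± 0.686, FDR 0.0326) was lost without vehicle replicate 3 (log2 -1.10, FDR 0.226) and without treated replicate 3 (log2 -1.44, FDR 0.116). Notum also shares 708 exonic bases, 29.4% of its length, with the antisense gene Notumos, which had at most 7 counts. Dkk3 did not pass the test in either cell type, but did in MSCs with the 6 libraries compared alone (log2 -1.49, FDR 0.0361).

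In the R-spondin arm, 4 of the 7 tested members fell with FG-4592 in MSCs and 5 in osteocytes at an FDR under 0.05, where 20.4% and 22% of all genes did. Rspo2 (chr15:43020794-43170826) gave 683, 664 and 668 CPM in vehicle MSCs, 556, 555 and 589.8 in treated MSCs, 296, 277 and 269 in vehicle osteocytes, and 131, 148 and 127 in treated osteocytes. Each condition stood apart from the next. Rspo2 fell 2.07-fold in osteocytes (log2 -1.05 ± 0.0577, FDR 3.73e-10) and by 0.24 on the log2 scale in MSCs (FDR 0.00263).

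Lgr5, an R-spondin receptor and itself a WNT target that marks stem cells in several epithelia (chr10:115450311-115587780), gave 7.78, 6.56 and 8.11 CPM in vehicle osteocytes and 3.17, 2.8 and 2.77 in treated ones. In MSCs it gave 1.69, 1.94 and 2.00 CPM with vehicle and 1.11, 0.894 and 0.859 with FG-4592. No treated library reached a vehicle library of its cell type. The fall was 2.57-fold in osteocytes (log2 -1.36 ± 0.159, FDR 3.05e-06), and in MSCs it lay just short of the fold threshold (log2 -0.98, FDR 0.000344) and passed it without vehicle replicate 1 (-1.02) or treated replicate 1 (-1.10).

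Rspo3, a further R-spondin, also fell in both cell types by less than the threshold (log2 -0.92, FDR 8.11e-06 in MSCs and -0.75, FDR 2.19e-05 in osteocytes). Lgr4, the most abundant LGR receptor, gave 146 to 152 CPM in vehicle MSCs and 148 to 159 in treated MSCs, and fell in osteocytes by 0.35 on the log2 scale (FDR 0.000165). Znrf3, a ubiquitin ligase that removes frizzleds, fell in MSCs by 0.53 (FDR 0.00125), with -0.01 (FDR 0.955) in osteocytes. Lgr6 passed the test in osteocytes, with overlapping groups (log2 -0.38, FDR 0.0298). Rspo1 had 45, 23 and 65 counts in vehicle osteocytes and 4, 20 and 16 in treated osteocytes, and at most 3 in any MSC library. The osteocyte groups did not overlap but did not pass the test (FDR 0.0697). They passed with the likelihood ratio test (FDR 0.0296), with the 6 libraries compared alone (FDR 0.0384) and without vehicle MSC replicate 1 (FDR 0.0495). The summed level of the R-spondin arm was 164 ± 2.52 CPM per kilobase in vehicle MSCs, 143 ± 4.34 in treated MSCs, 74.6 ± 1.56 in vehicle osteocytes and 40.6 ± 2.47 in treated osteocytes.

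Of the 3 feedback targets of beta-catenin, Lef1 fell with FG-4592 in both cell types and Axin2 in osteocytes, from low levels. Axin2, a scaffold of the complex that destroys beta-catenin and the usual readout of WNT activity, gave 87, 51 and 67 counts (1.31, 0.916 and 1.09 CPM) in vehicle osteocytes and 25, 20 and 40 counts (0.385, 0.327 and 0.660 CPM) in treated osteocytes. In MSCs it gave 1.07, 0.551 and 1.04 CPM with vehicle and 0.302, 0.715 and 0.281 with FG-4592. The osteocyte groups did not overlap and the MSC groups did. Axin2 fell 2.42-fold in osteocytes (log2 -1.27 ± 0.429, FDR 0.0241), a call lost without vehicle replicate 1 or without treated replicate 1 or 2 (highest FDR 0.0934). In MSCs its log2 fold change was -1.02 (FDR 0.075), which passed with the likelihood ratio test (FDR 0.0439) and without vehicle replicate 2 (-1.25, FDR 0.0473) or treated replicate 2 (-1.6, FDR 0.0147).

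Lef1, a transcription factor of the pathway and one of its targets, gave 14.9, 14.3 and 14.9 CPM in vehicle MSCs, 8.36, 9.13 and 11.3 in treated MSCs, 7.98, 6.74 and 7.12 in vehicle osteocytes, and 3.80, 4.46 and 3.73 in treated osteocytes. Treated libraries were below vehicle libraries within each cell type. Lef1 fell by less than the fold threshold in both (log2 -0.62, FDR 0.000593 and -0.87, FDR 3.18e-05). Tcf7 did not pass the test in either cell type, but in osteocytes its log2 fold change moved from -0.44 (FDR 0.493) to -1.36 (FDR 0.0243) without treated replicate 3.

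**Figure D4:**
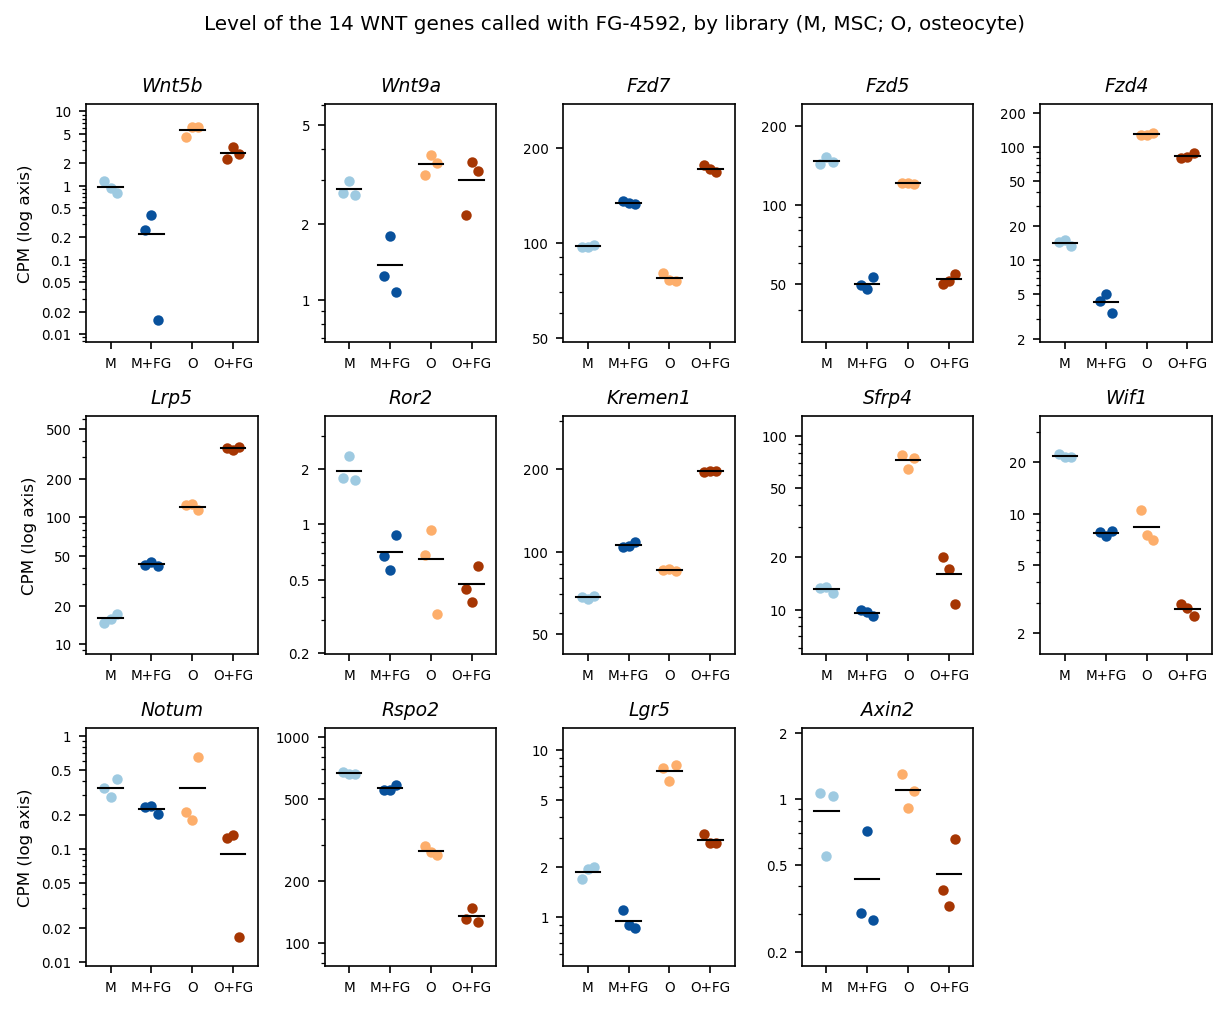
Level in CPM (log axis) of the 14 WNT genes called with FG-4592 in MSCs or osteocytes, with 1 point per library and a bar at the mean of each condition. Lrp5 climbs over the 4 conditions from 14.7 to 359 CPM, Fzd5 is low in all 6 treated libraries (47.7 to 54.7 CPM), and the treated MSC libraries of Wnt5b spread from 0.0156 to 0.402 CPM.

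The shares that single genes took of the summed level of their role differed between conditions for several ligands and receptors. Wnt4 took a mean of 48.3%, 46.6%, 58.2% and 74.7% of the summed ligand level in vehicle MSCs, treated MSCs, vehicle osteocytes and treated osteocytes, while the share of Wnt10b was 36.8%, 44.3%, 17.9% and 14.6%. In the same order, Fzd5 held 18.6%, 7.44%, 11.2% and 5.37% of the frizzled level, and Fzd4 held 1.87%, 0.645%, 12.4% and 8.84%. Lrp5 held 1.80% of the co-receptor and alternative receptor level in vehicle MSCs and 32.3% in treated osteocytes. These shares are descriptions of the condition means and were not tested, and those of the frizzleds take Fzd6 as 0.

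**Figure D5:**
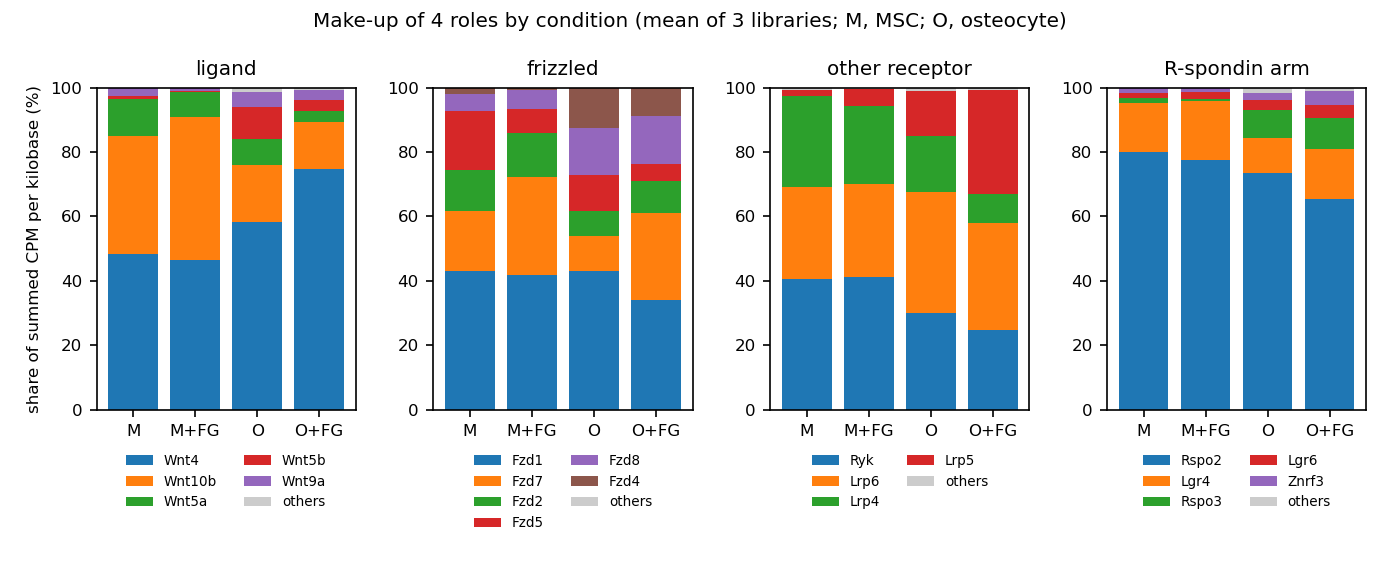
Share in percent (vertical axis) of the summed CPM per kilobase that each gene took within its role, as the mean of 3 libraries, for ligands, frizzleds, other receptors and the R-spondin arm in the 4 conditions. The Wnt4 share is 74.7% in treated osteocytes, the Fzd7 share is 30.3% and 27.1% in the treated conditions, and the Lrp5 share is 32.3% in treated osteocytes. Fzd6 was entered at 0, which cannot be read as silence.

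Whether the response to FG-4592 differed between osteocytes and MSCs was tested as an interaction contrast. Of the 37 members, Fzd4 was called up (3.94% of all genes were) and Sfrp4 was called down (1.07% of all genes were). For Fzd4 the difference of log2 fold changes, osteocytes minus MSCs, was 1.11 (FDR 1.2e-05), with a smaller fall in osteocytes, and without treated MSC replicate 3 it was 0.98, short of the fold threshold. For Sfrp4 it was -1.73 (FDR 2.64e-05), with a larger fall in osteocytes. At an FDR under 0.05 and any fold, the difference was above 0 for 8 members and below 0 for 5, where it was for 13.3% and 11% of all genes. Fzd7 (0.70, FDR 5.03e-07), Kremen1 (0.56, FDR 3.47e-06) and Wnt4 (0.80, FDR 3.79e-05) had a larger rise in osteocytes, Rspo2 (-0.81, FDR 2.64e-06) a larger fall there, and for Lrp5 the difference was 0.11 (FDR 0.413).

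Differentiation under vehicle changed the receptors most in Fzd4 and Lrp5. In vehicle osteocytes against vehicle MSCs, 11 of the 37 members were called up and 8 down, where 9.83% and 6.08% of all genes were, and 2 of those called up, Wnt2b and Rspo1, passed the filter only through osteocyte libraries. Fzd4 was 9.06-fold higher (log2 3.18 ± 0.0906, FDR 9.12e-14) and Lrp5 7.63-fold higher (log2 2.93 ± 0.0648, FDR 4.85e-15), with the library values given above. Wnt5b was 5.83-fold higher (log2 2.54 ± 0.38, FDR 3.53e-05), Sfrp4 5.53-fold (log2 2.47 ± 0.155, FDR 1.51e-09) and Lgr5 3.99-fold (log2 2.00 ± 0.164, FDR 4.2e-08). Fzd8 gave 34.6, 36.3 and 33.5 CPM in vehicle MSCs and 130.1, 141 and 138 in vehicle osteocytes, a rise of 3.92-fold (log2 1.97 ± 0.0564, FDR 9.53e-14). Rspo3, Frzb and Ror1 were also called up, with log2 fold changes of 1.6, 1.67 and 1.53.

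Of the members called down with differentiation, Wnt10b gave 47.7, 42.9 and 44.6 CPM in vehicle MSCs and 12.4, 12.4 and 14.1 in vehicle osteocytes, a fall of 3.47-fold (log2 -1.80 ± 0.0762, FDR 1.13e-11). Lgr4 gave 152, 146 and 147 CPM and 45.4, 46.7 and 50.7 CPM, a fall of 3.12-fold (log2 -1.64 ± 0.0608, FDR 2.26e-12). The groups stood apart for both. Fzd3, a receptor of planar polarity, gave 0.599, 1.04 and 1.32 CPM in vehicle MSCs and 0.226, 0.216 and 0.0488 in vehicle osteocytes, a fall of 5.98-fold from a low level (log2 -2.58 ± 0.552, FDR 0.00097). Ror2, Wif1, Wnt5a and Rspo2 fell by 1.6, 1.38, 1.26 and 1.26 on the log2 scale. Lef1 (log2 -1.01, FDR 3.03e-06) lay at the fold threshold and was not called in 8 of 20 other settings.

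In FG-4592-treated cells, 11 members were called up and 8 down in osteocytes against MSCs, where 12.6% and 5.64% of all genes were. Fzd4 (log2 4.29), Wnt5b (3.61, with 3.06 and 4.38 without treated MSC replicate 3 or 2), Lrp5 (3.04), Ror1 (2.33), Frzb (2.02), Fzd8 (1.87), Rspo3 (1.78), Lgr5 (1.61) and Wnt9a (1.12) were higher, besides Wnt2b and Rspo1, and the Wnt9a call was lost without treated MSC replicate 3 (0.97) or treated osteocyte replicate 2 (0.99). Rspo2 (-2.07), Lgr4 (-2.06), Wnt10b (-1.97), Fzd3 (-1.91), Wnt5a (-1.54), Wif1 (-1.48), Lef1 (-1.26) and Sfrp1 (-1.11) were lower. Sfrp4, called in vehicle, had a log2 fold change of 0.74 (FDR 0.000702) in treated cells. The adipocyte markers summed to 1020 to 1040 CPM in treated MSCs and 3940 to 4580 CPM in treated osteocytes, and their part in these differences was not tested.

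From a list of 82 further WNT pathway genes, 62 were tested, of which 4 were called down with FG-4592 in MSCs (5.17% of all genes were), and 2 were called up and 6 down in osteocytes (6.25% and 4.26% of all genes were). At an FDR under 0.05 and any fold, 14 of the 62 were higher and 20 lower in MSCs (17.6% and 20.4% of all genes), and 15 were higher and 18 lower in osteocytes (21.9% and 22% of all genes). The median log2 fold change of the 62 genes was -0.06 and 0.04. Called down in MSCs were Nkd1, a feedback inhibitor of the pathway (5.60 to 1.43 CPM, log2 -1.96, FDR 8.06e-08), Dact1 (0.981 to 0.284 CPM, log2 -1.78), Daam2 (42.2 to 12.5 CPM, log2 -1.75) and Tnfrsf19, a target gene at 0.429 and 0.0214 CPM, where the treated libraries held at most 2 counts.

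In osteocytes, Gpc6, a glypican of the cell surface (135 to 307 CPM, log2 1.19, FDR 6.98e-12), and Bcl9l, a co-activator of beta-catenin (164 to 375 CPM, log2 1.19, FDR 1.88e-10), rose. Dact1 (11.5 to 3.14 CPM, log2 -1.87, FDR 3.36e-07), Tnfrsf19 (53.7 to 17 CPM, log2 -1.66, FDR 1.57e-09), the co-repressor Tle4 (8.59 to 3.70 CPM, log2 -1.21, FDR 3.15e-06) and the target gene Ccn4 (48.9 to 22.5 CPM, log2 -1.12, FDR 6.7e-07) fell, as did Prickle1 at a low level (0.435 to 0.0981 CPM, FDR 0.0394). The other one called down was Daam2 (368 to 181 CPM, log2 -1.02). The 7 tested target genes of the list did not move one way, with 3 higher and 2 lower in MSCs, 2 higher and 2 lower in osteocytes, and median log2 fold changes of 0.06 and 0.08. Among them Myc (log2 0.75 in MSCs and 0.87 in osteocytes, FDR 6.85e-07 and 9.39e-08) and Ccnd1, which encodes cyclin D1 (0.51 and 0.61, FDR 0.000236 and 3.33e-05), rose. In the interaction contrast 5 of the 62 genes were called up (Gpc6, Apcdd1, Apc2, Nkd1 and Tnfrsf19), where 3.94% of all genes were. Myc, Ccnd1, Apcdd1 and Apc2 were named after their values were seen.

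For 6 of the 37 tested members, part of the exons is shared with an antisense gene: Fzd5, Lef1, Notum, Rspo3, Axin2 and Wnt5a. As reads were counted without strand and for every gene they overlap, reads of the partner cannot be told apart there, but no partner of these 6 had more than 51 counts in a library.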

How the data were processed

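RNAseq counts were analysed for 12 libraries of MPC2 cells. The labels gave each its cell type and treatment and no batch. The authors aligned paired 100-base reads with STAR 2.7.2a to mm10 and counted them over Gencode M22 with featureCounts (Subread 1.6.2), keeping uniquely mapped reads, without strand, and assigning a pair to each gene it overlapped. They deposited raw counts per gene, whose totals ran from 52829185 to 68108470. Floors of 3 counts cover counting error only.

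From these counts, 16484 genes (over 10 counts in 3 or more libraries) were fitted together in edgeR 4.0.16 (R 4.3.3), with TMM factors (0.9473 to 1.057), the quasi-likelihood test on 8 residual degrees of freedom and Benjamini-Hochberg adjustment (FDR) over all genes tested. Errors of log2 fold changes are approximate standard errors. They are the size of the log2 fold change over the square root of the F statistic of the test, which can fail near 0. Tested on simulated data with 200 genes changed 4-fold, the fit recovered 197 with 2 false calls among 15996 genes (FG-4592 in osteocytes), and 195 with 5 false calls among 16010 genes (interaction). The changed genes were drawn from those above 1 CPM, all others had no difference between conditions, and the spread was that of the fit. The simulation therefore does not cover changes near the fold threshold or genes at lower levels.

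The members and lists were chosen with earlier results of these data known. All 49 members were named. Those called with FG-4592 or in the interaction, and, for differentiation, the 6 strongest rises and 6 strongest falls among called members with a mean of at least 50 counts, were given by library. Of 82 further pathway genes, those called with FG-4592 were named, at most 5 in each direction by fold change, plus Daam2 in osteocytes, named after its value was seen. No replicate pair of libraries was alike to within sampling noise. Vehicle osteocyte replicate 1 stood furthest from its replicates, with chi-square per degree of freedom of 33.4 and 37.7 against replicates 2 and 3. That pair gave 13.7, and no pair of another condition exceeded 24.2.

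Alternatives were RLE factors, library size alone, filterByExpr, no filter, DESeq2 1.42.0, the likelihood ratio test, the 6 libraries compared alone, a replicate block, removal of genes that share exonic bases (GenomicRanges 1.54.1), and each library left out. Near-identical stretches were sought with blastn 2.17.0 in Gencode M21 transcripts, and promoters came from RefSeq (GRCm38.p6). The chromatin accessibility data of the study were not analysed here.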

Additional observations from a re-analysis of the deposited data

Results flagged for a closer look

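For 13 of the 37 tested WNT genes, the responses to FG-4592 in osteocytes and in MSCs differed in a test of the difference itself (the interaction contrast of edgeR, FDR under 0.05 over all genes tested). Over all genes tested, this difference was above 0 for 13.3% and below 0 for 11%, against 8 and 5 of the 37. Values are the log2 fold change in osteocytes minus that in MSCs. The difference was above 0 for Fzd4 (1.11, FDR 1.2e-05), Wnt4 (0.80, FDR 3.79e-05), Fzd7 (0.70, FDR 5.03e-07), Kremen1 (0.56, FDR 3.47e-06), Znrf3 (0.52, FDR 0.0257), Fzd5 (0.33, FDR 0.00282), Lrp6 (0.31, FDR 0.00328) and Ryk (0.22, FDR 0.0201). It was below 0 for Sfrp4 (-1.73, FDR 2.64e-05), Rspo2 (-0.81, FDR 2.64e-06), Lgr6 (-0.57, FDR 0.0362), Lgr4 (-0.42, FDR 0.00185) and Sfrp1 (-0.25, FDR 0.0265). For Lrp6 the log2 fold changes in MSCs and in osteocytes had opposite signs (-0.16 and 0.16) and both passed the test. Signs were also opposite for Lgr6 (0.19 and -0.38), Lgr4 (0.06 and -0.35) and Ryk (-0.16 and 0.06), where the value above 0 did not pass the test, and those of Lgr4 and Ryk are smaller than the shift that scaling by library size alone gave all genes. Groups of 3 libraries are too small for a search for single outlying libraries, so none was made.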

How the results depend on the processing

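Of 58 calls of members over the 5 comparisons, 51 held in every alternative that could be computed, 7 were lost in at least 1, and none of the 58 changed sign. The calls lost were Wnt9a in MSCs with FG-4592 (log2 -0.85 to -1.25 with a library left out), Wnt5b, Notum and Axin2 in osteocytes with FG-4592, Lef1 with differentiation in vehicle (-0.93 to -1.05), Wnt9a in treated osteocytes against treated MSCs (0.97 to 1.37) and Fzd4 in the interaction. A further 11 results became calls in at least 1 alternative.

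With each library left out in turn, members called up and down with FG-4592 numbered 1 to 1 and 5 to 8 in MSCs and 3 to 3 and 6 to 9 in osteocytes. With differentiation they numbered 11 to 11 and 7 to 8 in vehicle and 10 to 11 and 8 to 9 in FG-4592. In the interaction 0 to 3 were called up, 3 without treated MSC replicate 2 (Wnt5b and Wnt9a beside Fzd4) and 0 without treated MSC replicate 3, and 1 to 1 called down. With no filter on counts, 2 were called down in the interaction, Wnt10a beside Sfrp4. Wnt10a was also called down with FG-4592 in osteocytes (FDR 0.0123), and with differentiation in vehicle Wnt10a was called up (FDR 0.0117) and Wnt2 down (FDR 0.00259). Without genes that share exonic bases, 5 members were called down in osteocytes with FG-4592, since Fzd5, Notum and Axin2 were then not tested. The summed frizzled level of treated osteocytes was 139 CPM per kilobase with RLE factors, and other summed levels moved by less than their SD.

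With library size alone, the median log2 fold change of all genes with FG-4592 moved from -0.045 to -0.13 in MSCs and from 0.002 to -0.096 in osteocytes, and the share of tested members with a log2 fold change above 0 from 18.9% to 13.5% and from 29.7% to 24.3%, so that members near 0 changed sign.

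The replicate numbers did not pair the libraries (correlations of same-numbered libraries from -0.053 to 0.054). With a replicate block, 7, 10, 19, 20 and 2 members were called in MSCs, osteocytes, differentiation in vehicle, differentiation in FG-4592 and the interaction, in place of 7, 11, 19, 19 and 2, and Notum lost its call (-1.82, FDR 0.076). Depth limits Notum, Fzd3, Fzd9, Dkk3, Axin2, Tcf7, Wnt2b and Rspo1, at about 1 CPM or less in every condition.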
